A study of Mus musculus with 12 samples.

Results

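Autophagy genes of mouse leukaemia cells are described here across 1 comparison, Riok2-floxed cells given hydroxytamoxifen (OHT) against the same cells given its ethanol vehicle (EtOH). The members were chosen by name: the numbered Atg genes, the kinases Ulk1 and Ulk2, the subunits of the autophagy lipid kinase, the ATG8 proteins, the common cargo receptors and a few further factors of autophagosome formation. The names matched 40 of the 24221 rows of the table, and all 40 were among the 13814 genes with an adjusted p-value.

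Autophagy encloses cytoplasm, damaged organelles or protein aggregates in a double membrane, the autophagosome, which fuses with the lysosome for degradation. The ULK kinase complex starts the process, a lipid kinase marks the site with the phosphoinositide PI3P, ATG9 vesicles and ATG2 lipid channels supply membrane, and ubiquitin-like conjugation attaches ATG8 proteins (LC3 and GABARAP) to it, where cargo receptors bind. The kinase mTORC1 restrains the pathway in fed cells, and blood cells change their use of it as they mature. Transcript levels do not measure the flow of material through the pathway.

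The cells were C57BL/6 mouse acute myeloid leukaemia cells carrying the fusion oncogene MLL-AF9 and floxed Riok2 alleles. There were 3 samples that received OHT and 3 that received EtOH, collected 72 h after the addition, and both groups carried the floxed alleles. OHT switches on tamoxifen-dependent Cre recombinases, and RIOK2 is a kinase of small ribosomal subunit maturation. The labels name no Cre driver and give no OHT group without floxed alleles, so effects of losing Riok2 and of OHT itself cannot be told apart, and they do not say whether replicates were separate cultures, so p-values may measure technical spread only. A further 6 samples, MLL-AF9 cells given a RIOK2 inhibitor at 1 µM or DMSO, were not analysed here.

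The table gives 1 base mean (normalised reads averaged over libraries), 1 log2 fold change and 1 standard error (SE) per gene, with no values per sample. Base means summed to 20307732 normalised reads. Its fold changes carry no stated direction and are read as OHT over EtOH because Riok2 was at -3.60 ± 0.20 (SE) on the log2 scale in the authors' deposited table. Of the leukaemic cell markers, all 7 had a base mean of at least 1648 in the authors' deposited table; 4 fell (Mpo at -2.37, Myb at -0.87, Hoxa9 at -0.55 and Meis1 at -0.41 on the log2 scale), Ptprc (1.10) and Spi1 (0.71) rose, and Kit (0.31) did not pass. Their levels summed to 46274 normalised reads in OHT and 86344 in EtOH, computed from base means and fold changes. Mpo, with the highest base mean of the 7 (34343) and 19.4% of its EtOH level, weighs most in these sums. The fall of the sum therefore does not describe the list as a whole. The T cell markers Cd3e and Cd8a, the B cell marker Ms4a1 and 4 haemoglobin genes had a base mean of 0 in the authors' deposited table. All 9 markers of maturing myeloid cells rose, from 1.23 (Cd14) to 4.17 (Mertk) on the log2 scale in the authors' deposited table. Over all 13814 genes with an adjusted p-value, 25.5% were higher and 23.4% lower. Levels of the 9 summed to 363907 normalised reads in OHT and 44945 in EtOH, both computed from base means and fold changes. Lyz2, with the highest base mean of the 9 (131712) and a log2 fold change of 3.05 ± 0.55 (SE), weighs most in these sums. The part of either marker list in the results below was not tested, and in these bulk samples a change in the share of cells of a type and a change in RNA per cell cannot be told apart.

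More autophagy genes were higher than lower after OHT, by modest amounts. At the authors' adjusted p-value under 0.05, 20 of the 40 (50%) rose and 3 (7.5%) fell in the authors' deposited table, beside 25.5% higher and 23.4% lower over all genes tested. The share called in either direction, 57.5%, lay near the 48.9% of all genes tested and just under the 59.3% of the 9888 genes with base means of 100 or more, a level that all 40 exceeded. Among those 9888 genes 29.2% were higher and 30% lower. The median log2 fold change was 0.36 for the autophagy genes, 0.05 for all genes tested and -0.02 for genes with base means of 100 or more in the authors' deposited table. Without regard to sign, the median size of the change was 0.38 for the autophagy genes, beside 0.56 for all genes tested and 0.52 at base means of 100 or more. Of the 17 that did not pass, 10 had a positive and 7 a negative fold change. Standard errors of the autophagy genes ran from 0.10 to 0.31, with a median of 0.17, beside 0.18 at base means of 100 or more in the authors' deposited table.

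**Figure D1:**
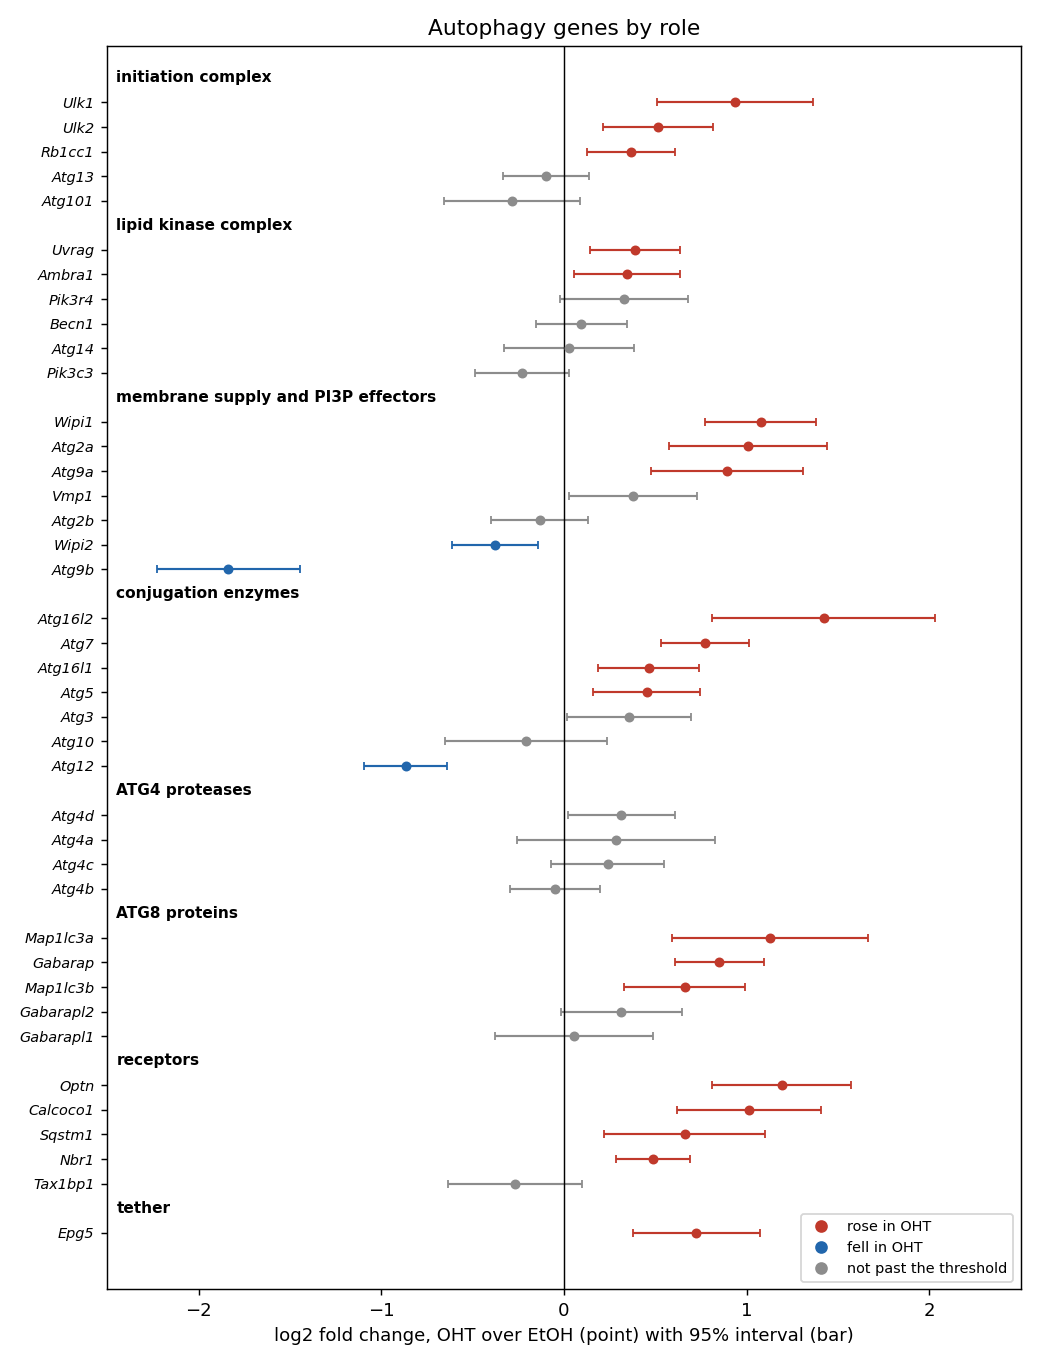
Each point is the log2 fold change, OHT over EtOH, of 1 of the 40 autophagy genes in the authors' deposited table, grouped by role, and each bar is the 95% interval (1.96 SE either side). Red points (20) rose and blue points (3) fell at an adjusted p under 0.05, and grey points (17) did not pass; Atg9b at -1.84 lies farthest from 0.

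Levels of the autophagy genes spanned a wide range. Per kilobase of exon, Gabarap had the highest base mean at 4202 normalised reads, followed by the receptors Tax1bp1 at 2643 and Sqstm1 at 2094 and the conjugating enzyme Atg3 at 1300.2. The lowest were Atg9b at 51.7, Atg4a at 46.8 and Atg16l2 at 44.7 normalised reads per kilobase. The median was 254 normalised reads per kilobase for the autophagy genes, against 154 for all genes tested and 297 for those with base means of 100 or more. Mean levels in each group were computed from the base mean and the fold change, taking the 2 groups as equal in size. These levels are called implied below and understate differences, because the authors' fold changes appear to be shrunken.

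**Figure D2:**
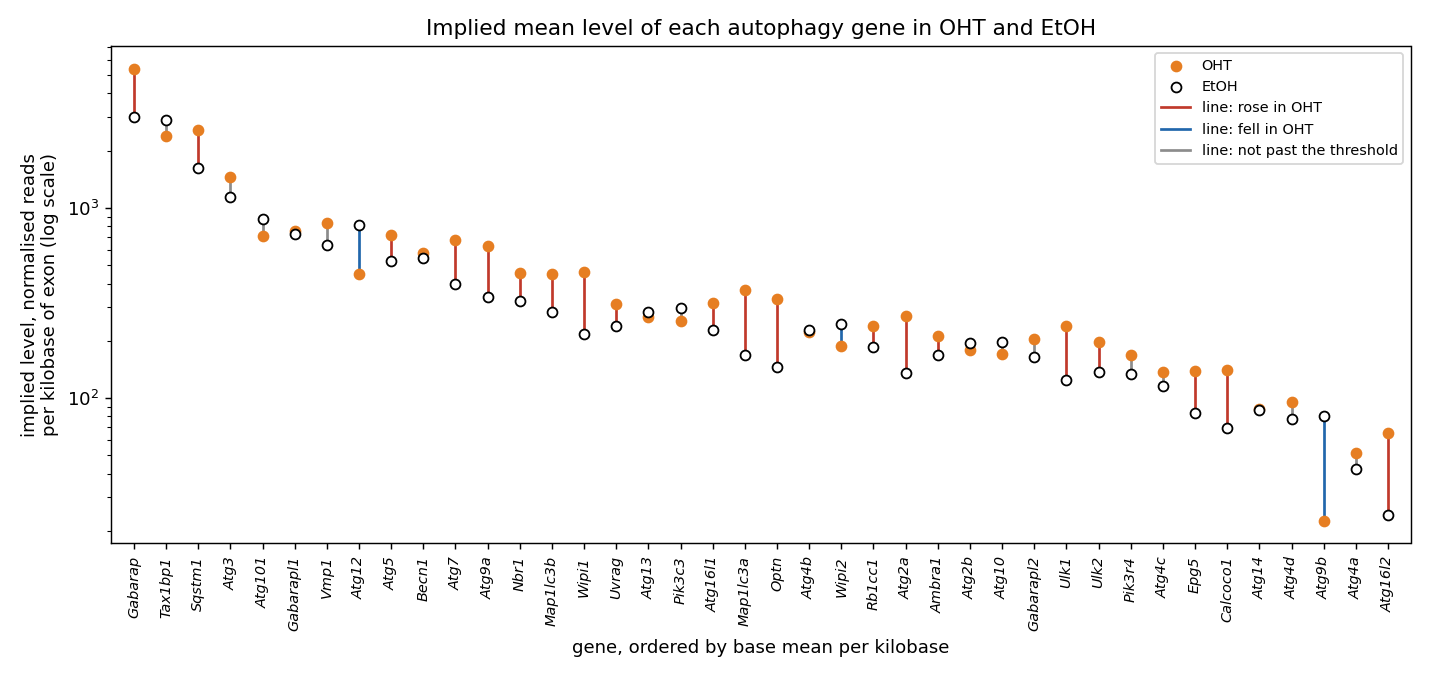
Implied mean levels of the 40 autophagy genes in OHT (filled orange) and EtOH (open) in normalised reads per kilobase of exon, on a log axis, ordered by base mean per kilobase. Lines join the 2 groups of a gene and are red where it rose, blue where it fell and grey otherwise; Gabarap is at 5408 in OHT and 2996 in EtOH, and Atg9b at 22.6 in OHT and 80.8 in EtOH.

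In the initiation complex both kinase genes and the scaffold rose. These were 3 of 5 genes, beside 25.5% higher over all genes tested, and 0 fell, beside 23.4% lower. Ulk1, the kinase that AMPK and mTORC1 control, had an implied level of 1253 normalised reads in OHT and 654 in EtOH, and its log2 fold change in the authors' deposited table was 0.94 ± 0.22 (SE, adjusted p = 7.23e-05). Its relative Ulk2 rose by 0.52 ± 0.15 (adjusted p = 0.00249, authors' deposited table). The scaffold gene Rb1cc1, which encodes FIP200, rose by 0.37 ± 0.12 (adjusted p = 0.0075, authors' deposited table). The adaptor Atg13, which links the kinase to FIP200, stood at -0.10 ± 0.12 and its partner Atg101 at -0.29 ± 0.19 in the authors' deposited table, and neither passed. The 95% interval of Atg13, 79.4 to 109.9% of the EtOH level, lay wholly below that of Ulk1, 142 to 258%, a difference between genes that was not tested.

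In the lipid kinase complex 2 of 6 genes rose and 0 fell, beside 25.5% higher and 23.4% lower over all genes tested. The catalytic subunit gene Pik3c3 (VPS34) had -0.23 ± 0.13 and the regulatory subunit gene Pik3r4 (VPS15) 0.33 ± 0.18 on the log2 scale in the authors' deposited table, and neither passed. Becn1, the Beclin 1 gene, was at 0.10 ± 0.13 and Atg14, which directs the kinase to forming autophagosomes, at 0.03 ± 0.18 in the authors' deposited table. Their levels in OHT were 106.9% and 102% of those in EtOH, with 95% intervals of 90.0 to 127% for Becn1 and 79.8 to 130.4% for Atg14. Uvrag, the subunit of the endosomal form of the complex, rose by 0.39 ± 0.13 (adjusted p = 0.00535) and Ambra1, a Beclin 1 partner, by 0.35 ± 0.15 (adjusted p = 0.0395, authors' deposited table). Ambra1 was the called member nearest to the threshold.

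Among the factors that supply membrane or bind PI3P, the ATG9 and WIPI pairs each had members that changed in opposite directions. Atg9b, 1 of the 2 genes for the lipid scramblase of ATG9 vesicles, fell by 1.84 ± 0.20 (adjusted p = 1.04e-18, authors' deposited table). Its implied level was 88.3 normalised reads in OHT and 315 in EtOH, so OHT cells had 28.0% of the EtOH level (95% interval 21.3 to 36.7%), and 126 of the 13814 genes tested had a lower fold change. Atg9a, the widely expressed member of that family, rose by 0.89 ± 0.21 (adjusted p = 0.000103, authors' deposited table). Its implied level per kilobase was 628 normalised reads in OHT and 338 in EtOH, against 22.6 in OHT and 80.8 in EtOH for Atg9b. Wipi1, a PI3P-binding protein, rose by 1.08 ± 0.15 (adjusted p = 3.74e-11), while Wipi2, the relative that recruits ATG16L1, fell by 0.38 ± 0.12 (adjusted p = 0.00431, authors' deposited table). The lipid transfer gene Atg2a rose by 1.01 ± 0.22 (adjusted p = 2.15e-05), and its paralogue Atg2b stood at -0.13 ± 0.14 in the authors' deposited table. The 95% intervals of the members did not overlap within the ATG9, WIPI or ATG2 pair. Vmp1, an endoplasmic reticulum scramblase, was at 0.38 ± 0.18 (adjusted p = 0.066, authors' deposited table).

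Positions and promoters are given for the ATG9 and WIPI pairs, because their members changed in opposite directions. Atg9b (ENSMUSG00000038295.14, protein coding) lies on the minus strand of GRCm38 chromosome 5 from 24384181 to 24392143, and Atg9a (ENSMUSG00000033124.15) on the minus strand of chromosome 1 from 75180860 to 75192196. Wipi1 (ENSMUSG00000041895.15) is on the minus strand of chromosome 11 from 109573331 to 109611967, and Wipi2 (ENSMUSG00000029578.15) on the plus strand of chromosome 5 from 142627698 to 142670588. The RefSeq windows (GRCm38.p6) are 300 bases long, ending 50 bases after the start site, at chr5:24392094-24392393 (minus strand) for Atg9b, chr1:75191961-75192260 (minus) for Atg9a, chr11:109611340-109611639 (minus) for Wipi1 and chr5:142629334-142629633 (plus) for Wipi2. The RefSeq start lay 1.9 kb downstream of the GENCODE M21 gene start for Wipi2, 578 bases for Wipi1 and 186 for Atg9a, and at the same base for Atg9b; a GENCODE transcript starts within 48 bases of each. They are written 5′ to 3′ along the gene's strand with CG dinucleotides in capitals.
Atg9b: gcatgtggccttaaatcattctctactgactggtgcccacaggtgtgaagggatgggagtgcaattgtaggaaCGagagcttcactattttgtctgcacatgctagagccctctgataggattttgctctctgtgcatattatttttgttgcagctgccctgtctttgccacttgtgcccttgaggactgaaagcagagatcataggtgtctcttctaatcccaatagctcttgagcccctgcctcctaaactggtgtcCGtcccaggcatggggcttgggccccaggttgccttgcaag
Atg9a: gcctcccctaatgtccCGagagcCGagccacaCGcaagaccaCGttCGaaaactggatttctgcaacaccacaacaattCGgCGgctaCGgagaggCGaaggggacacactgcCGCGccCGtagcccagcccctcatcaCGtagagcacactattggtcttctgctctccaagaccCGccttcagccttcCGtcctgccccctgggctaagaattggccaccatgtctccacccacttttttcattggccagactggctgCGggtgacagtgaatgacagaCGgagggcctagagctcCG
Wipi1: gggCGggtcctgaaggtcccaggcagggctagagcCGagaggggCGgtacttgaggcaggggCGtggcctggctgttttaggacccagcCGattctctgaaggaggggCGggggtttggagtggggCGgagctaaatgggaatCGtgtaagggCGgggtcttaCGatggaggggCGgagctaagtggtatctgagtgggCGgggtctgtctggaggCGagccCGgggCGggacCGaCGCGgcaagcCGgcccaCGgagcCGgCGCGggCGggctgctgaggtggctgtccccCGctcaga
Wipi2: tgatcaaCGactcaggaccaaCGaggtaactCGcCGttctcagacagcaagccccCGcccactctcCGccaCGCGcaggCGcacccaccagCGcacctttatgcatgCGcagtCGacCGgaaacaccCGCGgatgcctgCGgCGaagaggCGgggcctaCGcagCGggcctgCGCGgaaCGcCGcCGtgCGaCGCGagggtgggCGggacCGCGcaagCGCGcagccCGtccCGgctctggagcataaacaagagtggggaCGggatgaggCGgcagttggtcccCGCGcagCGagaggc
The Atg9b window held 2 CG dinucleotides, the fewest among the 33 autophagy genes with a RefSeq window, whose median was 19 and whose highest count was 55. The next lowest counts were 3 in Atg4a, which did not pass, 4 in Atg7, which rose, and 7 in Gabarap, which rose. A relation between CG counts and fold changes was not tested. Where a gene had more than 1 window, the first listed was used for CG counts and GC content. Atg9a had 18, Wipi1 25 and Wipi2 40, and the median over 10376 genes tested with a window was 20. The windows of the 33 autophagy genes had a median GC content of 60%, against 60.3% for genes tested. No window was listed for Atg12, Atg16l1, Becn1, Epg5, Map1lc3a, Pik3c3 or Rb1cc1.

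Of the 7 conjugation genes 4 rose, Atg12 fell and 2 did not pass, beside 25.5% higher and 23.4% lower over all genes tested. Atg7, the E1-like enzyme that activates both ubiquitin-like proteins, rose by 0.77 ± 0.12 (adjusted p = 3.17e-09, authors' deposited table), with implied levels of 2780.1 normalised reads in OHT and 1628 in EtOH. Atg5, the acceptor of ATG12, rose by 0.45 ± 0.15 (adjusted p = 0.00663) and Atg16l1, which brings the ATG12-ATG5 conjugate to the membrane, by 0.46 ± 0.14 (adjusted p = 0.00273, authors' deposited table). Atg12 itself, the ubiquitin-like protein of that conjugate, fell by 0.87 ± 0.11 (adjusted p = 7.71e-13, authors' deposited table). Its implied level was 2137 normalised reads in OHT and 3894 in EtOH, or 54.9% of EtOH (95% interval 46.9 to 64.1%), opposite in sign to both partners of the complex. Atg16l2, a paralogue of Atg16l1, had the highest positive fold change of the 40, 1.42 ± 0.31 (adjusted p = 2.43e-05), and the widest standard error among them in the authors' deposited table. The E2-like enzymes Atg3, at 0.36 ± 0.17 (adjusted p = 0.0745), and Atg10, at -0.21 ± 0.23, did not pass in the authors' deposited table.

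None of the 4 ATG4 proteases, which trim ATG8 proteins before conjugation and release them afterwards, passed the threshold, beside 48.9% of all genes tested. The unadjusted p-values of these 4 in the authors' deposited table were under 0.05 for Atg4d alone. Atg4b, the most abundant per kilobase, stood at -0.05 ± 0.13, and its level in OHT was 96.7% of EtOH with an interval of 81.5 to 115% in the authors' deposited table. Atg4d was at 0.31 ± 0.15 (adjusted p = 0.0707), Atg4c at 0.24 ± 0.16 and Atg4a at 0.28 ± 0.28 in the authors' deposited table. For Atg4a the interval, 83.6 to 177%, leaves room for changes of the size seen in genes that passed.

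Of the 5 ATG8 genes, 3 rose and 2 did not pass, beside 25.5% higher and 23.4% lower over all genes tested. Gabarap, the most abundant per kilobase, rose by 0.85 ± 0.13 (adjusted p = 1.2e-10, authors' deposited table), with implied levels of 7306 normalised reads in OHT and 4048 in EtOH. Map1lc3b, the LC3B gene whose product is the usual marker of autophagosomes, rose by 0.66 ± 0.17 (adjusted p = 0.000345, authors' deposited table), and Map1lc3a by 1.13 ± 0.27 (adjusted p = 0.000146). Gabarapl1 was at 0.05 ± 0.22 and Gabarapl2 at 0.32 ± 0.17 (adjusted p = 0.113, authors' deposited table). The 95% interval of Gabarap did not overlap that of Gabarapl1 and did overlap that of Gabarapl2.

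Of the 5 cargo receptor genes 4 rose and Tax1bp1 did not pass, beside 25.5% higher and 23.4% lower over all genes tested. Optn, the gene of the mitophagy receptor optineurin, rose by 1.19 ± 0.19 (adjusted p = 6.98e-09, authors' deposited table), to 229% of the EtOH level (95% interval 176 to 298%). Calcoco1, a receptor for endoplasmic reticulum and Golgi membranes, rose by 1.01 ± 0.20 (adjusted p = 2.67e-06) and Nbr1, which binds ubiquitinated cargo, by 0.49 ± 0.10 (adjusted p = 1.39e-05, authors' deposited table). Sqstm1, which encodes p62, a receptor that is itself degraded by autophagy, rose by 0.66 ± 0.22 (adjusted p = 0.0082, authors' deposited table), with implied levels of 7242 normalised reads in OHT and 4580 in EtOH. Tax1bp1, the most abundant receptor, stood at -0.27 ± 0.19 (adjusted p = 0.24, authors' deposited table). Epg5, a tether that joins autophagosomes to late endosomes and lysosomes, rose by 0.72 ± 0.18 (adjusted p = 0.000168, authors' deposited table).

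**Figure D3:**
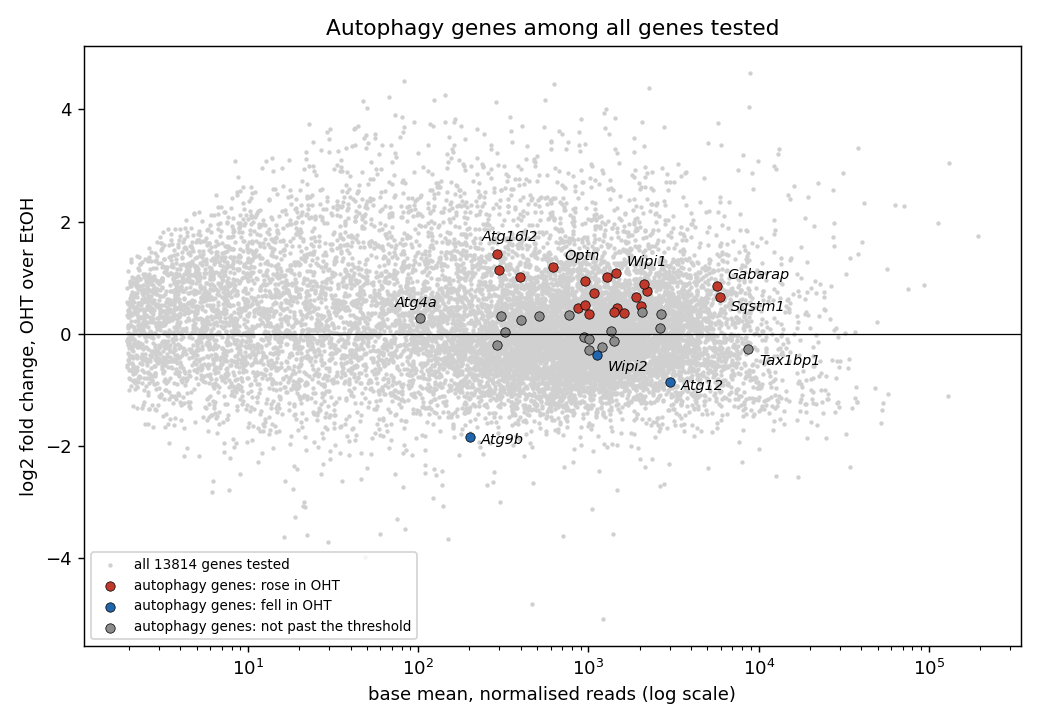
Log2 fold change, OHT over EtOH, against base mean in normalised reads (log axis) for all 13814 genes tested (light grey) and the 40 autophagy genes (large points; red rose, blue fell, dark grey did not pass), in the authors' deposited table. Named are some of the extremes: Atg16l2 at 1.42 lies highest, Atg9b at -1.84 lowest and Tax1bp1 farthest to the right at a base mean of 8683.

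Counting choices could touch 16 of the 40 genes. In GENCODE M21, 14 share exon sequence with another gene and 2, Atg4a and Gabarapl2, have a copy of at least 95% identity over at least 20% of a transcript; how reads in shared sequence were assigned is not stated in the labels, so these 16 values are uncertain. Exons of Atg9b overlap Nos3 on the opposite strand over 294 bases, and Nos3 had a base mean of 7.25, against 202 for Atg9b in the authors' deposited table. Atg9a shares 41.8% of its exon bases with Gm29253 on the same strand, and Sqstm1 20.5% with Mrnip. Becn1 shares 29.6% with Cntd1 (base mean 36.6 in the authors' deposited table). Atg4d shares 23.2% with Kri1, whose base mean of 1412 was above the 515 of Atg4d in the authors' deposited table. Among the other 24 genes, a split chosen after seeing the data, 14 rose and 2 fell. With the same 16 genes left out, 25.5% of all genes tested were higher and 23.4% lower.

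Promoters were searched on both strands for letters bound by factors known for regulating autophagy. CACGTG, the E-box core within the CLEAR element of TFEB and TFE3, was present in 4 of 33 autophagy genes (12.1%), against 11.5% of 10376 genes tested and 8.09% of all 27025 genes with a window. Of these 4, Atg5 and Atg7 rose while Atg3 and Atg14 did not pass. The matches, with 12 bases on either side and CACGTG in capitals, are at chr6:114670952-114670981 (plus strand) for Atg7, chr10:44268313-44268342 (plus) for Atg5, chr16:45158723-45158752 and chr16:45158746-45158775 (plus) for Atg3 and chr14:47568418-47568447 (minus) for Atg14. The RefSeq start used for Atg7 lies 28.0 kb downstream of its GENCODE gene start, 9066 bases upstream of the nearest GENCODE transcript start, and that of Atg14 lies 2.2 kb downstream of the gene start, at the start of another GENCODE transcript.
Atg7: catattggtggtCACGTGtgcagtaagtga
Atg5: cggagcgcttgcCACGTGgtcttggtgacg
Atg3, upstream match: gcctccttttgtCACGTGtcctgggagagt
Atg3, downstream match: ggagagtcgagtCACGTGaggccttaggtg
Atg14: aaaacaaaatccCACGTGactggccctgag
The longer form TCACGTGA, which contains CACGTG, was in Atg3 alone (3.03%, against 2.1% of genes tested and 1.12% of all). The cyclic AMP response letters TGACGTCA were in Atg5 and Atg16l2 (6.06%, against 3.54% of genes tested and 2.03% of all). TGTTTAC, a FOXO site, and TGATGNAA, part of the ATF4 composite site, were found in 0 of the 33 genes. Of genes tested 2.98% and 2.92% had them, and of all genes 4.05% and 4.51%.

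Further genes of the pathway, in lists outside the 40, were higher more often than lower. The shares over all genes tested, 25.5% higher and 23.4% lower, are the background for each count. Of 13 autophagosome-lysosome fusion genes 8 rose and 0 fell, with a median log2 fold change of 0.40; the tethers Tecpr1 (2.31 ± 0.19) and Plekhm1 (1.17 ± 0.19) and the HOPS subunit gene Vps11 (0.82 ± 0.13) changed most in the authors' deposited table. Of 15 other cargo receptors 7 rose and 2 fell (median 0.31): Wdfy3, which encodes the aggregate adaptor ALFY, rose by 2.22 ± 0.28 and Fam134b, an older name of the reticulophagy receptor Retreg1, by 1.40 ± 0.21, while the mitophagy receptor Bnip3 fell by 1.66 ± 0.33 in the authors' deposited table. The other one that fell, named after its value was seen, was Nufip1, a factor of box C/D snoRNP assembly that has also been described as a ribosome receptor (-0.96 ± 0.16) in the authors' deposited table. Of 8 other core partners 4 rose and 0 fell (median 0.32), led by Trp53inp1 (2.80 ± 0.16), Trp53inp2 (2.66 ± 0.23) and Sh3glb1 (1.53 ± 0.20) in the authors' deposited table.

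Upstream, of 18 tested genes of mTORC1 and AMPK control 7 rose and 0 fell, against 48.9% of all genes tested called in either direction, with a median log2 fold change of 0.21. Mtor stood at 0.29 ± 0.20 (adjusted p = 0.243), while the mTOR partner Mlst8 (0.67 ± 0.19) and the AMPK subunits Prkab1 (0.64 ± 0.13) and Prkag2 (0.51 ± 0.15) rose in the authors' deposited table. Sesn3, a stress-induced inhibitor of mTORC1 signalling, rose by 2.03 ± 0.50 at a low base mean of 27.2 in the authors' deposited table, and it was singled out with its value known. The list for transcriptional control, which includes genes of folliculin and its partners besides transcription factors, had a median of 1.12. Of its 11 genes 8 rose and 0 fell. Tfeb (1.16 ± 0.21, adjusted p = 3.29e-07), Tfe3 (1.12 ± 0.15, adjusted p = 1.9e-12), Mitf (2.38 ± 0.30) and Foxo3 (1.16 ± 0.19) rose, as did Fnip2 (2.05 ± 0.21), a folliculin partner in the authors' deposited table. Of 16 lysosome marker genes 14 rose and 0 fell (median 0.84), with Ctsd at 2.34 ± 0.19 and Psap at 2.27 ± 0.14 in the authors' deposited table. The highest fold change of the 40 autophagy genes, 1.42 for Atg16l2, was below those of both lysosome genes in the authors' deposited table. Differences between the lists were not tested.

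**Figure D4:**
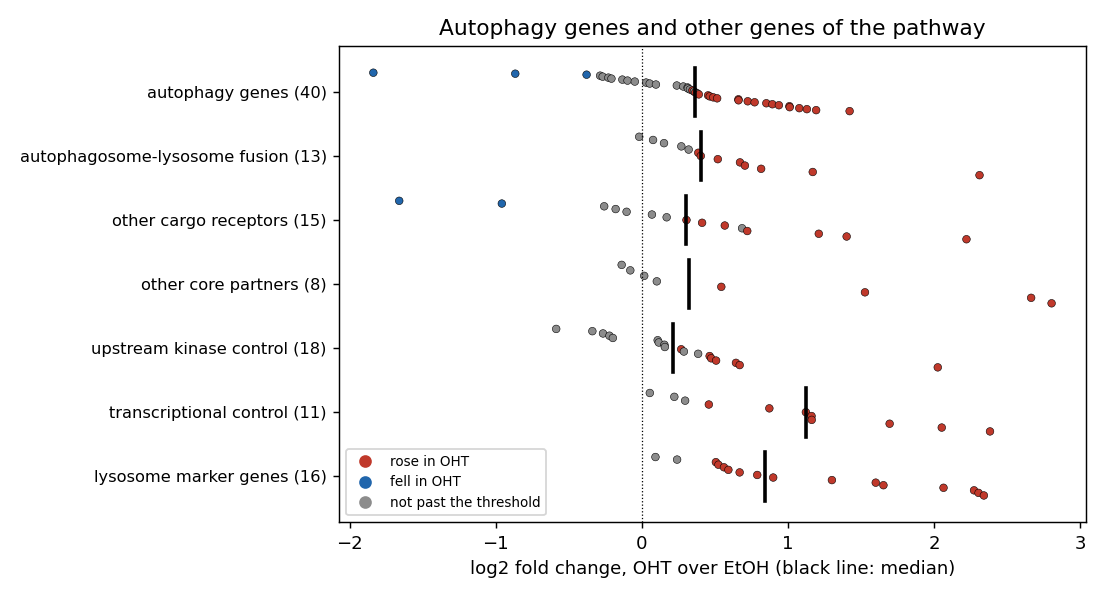
Log2 fold changes, OHT over EtOH, in the authors' deposited table for the 40 autophagy genes and for 6 lists of other genes of the pathway, with the number of genes tested in brackets. Each point is a gene (red rose, blue fell, grey did not pass; height within a row only separates points), and black lines mark medians, 0.36 for the autophagy genes and between 0.21 and 1.12 for the lists.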

How the data were processed

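RNA from 12 samples was sequenced from TruSeq libraries, and 1 table, the comparison of 3 OHT with 3 EtOH samples, was used. The submitters' processing notes name build mm10 and the programs STAR 2.7.2b, Trimmomatic 0.38.0 and HTSeq 0.9.1 beside DESeq2 and DESeq, with no settings or annotation. Per gene, the authors deposited a base mean (signal in normalised reads), a log2 fold change, its error on the log2 scale, a Wald score and a raw and adjusted p-value. The score was checked to be the ratio of fold change and error (largest gap 7.6e-08), and the adjustment to be that of Benjamini and Hochberg for 13814 genes (largest gap 2.3e-07). No error exceeds 0.75 even for genes with hardly any reads, the reason why folds are taken to be shrunken.

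No values per sample are in the table, so samples could not be tested anew; calls rest on an adjusted p-value of the authors under 0.05. Intervals are the fold change plus or minus 1.96 standard errors. GENCODE M21 (GRCm38, which is mm10) gave exon lengths and positions; all 40 autophagy genes and 95.5% of genes tested were matched. Copies were sought with BLAST+ 2.17.0 (at least 95% identity over 200 bases), and Python 3.11.15 and pandas 2.3.3 did the rest. The adjustment step was tested on simulated data. Members and lists were chosen with earlier results of these data known. Every autophagy gene is named, and from each other list the 3 genes with the largest changes past the threshold with base means of 100 or more, besides Mtor, Tfeb, Tfe3 and Foxo3; 1 gene that this rule names is not reported here.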

Additional observations from a re-analysis of the deposited data

How the results depend on the processing

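The counts of 20 higher and 3 lower genes were the same without independent filtering, where Ambra1 passed narrowly at an adjusted p of 0.0499. Of all genes with a p-value 19.5% were then higher and 17.9% lower. Limits of a base mean of at least 100 and a standard error of at most 0.5 could not alter the counts of autophagy genes, since each of these genes met both. At an adjusted p under 0.01 they were 19 and 3 (Ambra1 was lost), beside 20.7% higher and 19.1% lower over all genes tested. At 0.10 they were 23 and 3 (Vmp1, Atg4d and Atg3 were gained), beside 28.3% and 25.9%, and with folds centred on the median of all genes tested, a choice made after seeing the data, 19 and 3 (Ambra1 at an adjusted p of 0.0829), beside 23.9% and 25.2%. With an absolute log2 fold change of at least 0.5 there were 14 higher and 2 lower, beside 22.3% and 19.4%, and of at least 1 there were 7 in all, 6 higher and 1 lower, since this removes smaller changes by construction; 13.6% of all genes tested were then higher and 7.3% lower. The median of 0.36 was 0.31 when centred and 0.46 without genes that overlap others or have copies, added after seeing the data. No gene past the threshold could change direction under these settings. Only centring alters the folds, by 0.05, and the smallest change past the threshold was 0.35 (Ambra1). Atg14, which did not pass, was at 0.03 and at -0.02 when centred. No paired analysis was possible because the table has no values per sample, and leaving out each replicate in turn was not run for the same reason. The number of reads per library behind each gene, the spread between replicates and the part of any single library cannot be read from the table.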
